A study of Mus musculus with 10 samples.

Results

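The genes described here are 10 members of the platelet-derived growth factor (PDGF) system and of the gene set that marks mural cells, the pericytes and smooth muscle cells that cover blood vessels. They were taken by gene symbol: the ligand genes Pdgfa, Pdgfb, Pdgfc and Pdgfd, the receptor genes Pdgfra and Pdgfrb, and the mural genes Rgs5, Cspg4, Notch3 and Acta2. All 10 were found, each as a separate transcript, among 24016 RefSeq transcripts, of which 24011 carried a symbol. Liver RNA was sequenced from 10 male C57BL/6 mice, 8 to 12 weeks old. AdVEGFA livers came from 5 mice that had received, through the tail vein, a serotype 5 adenovirus in which the CMV promoter drives VEGF-A165, and AdCMV livers from 5 mice given the same type of virus with that promoter and no transgene. All were taken on day 6 after injection, following perfusion with PBS, and RNA depleted of ribosomal RNA was sequenced. The promoter of the vector is not restricted to a cell type. The controls also received adenovirus, and the vector load of each liver was not measured here.

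The PDGF ligands are secreted dimers that signal through receptor tyrosine kinases, alpha and beta. Endothelial cells of growing vessels make PDGF-B, which recruits and expands pericytes that carry PDGFR-beta on their surface. In liver the pericyte position along the sinusoids is held by hepatic stellate cells, which also carry PDGFR-beta and gain smooth muscle actin when they are activated.

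Each library held between 5758963 and 13493963 mapped tags in AdCMV (median 7879671) and between 5596565 and 8133952 in AdVEGFA (median 6730411). Levels are given in RPKM, reads scaled by transcript length and mapped tags, as deposited. Read counts were worked back from RPKM, transcript length and the size of the RPKM steps. Values of up to 20 reads were checked where the rounding of the RPKM was worth under 0.1 read. All of those came out whole in every library, within 0.1 read plus that rounding. On a transcript of 1 kb, 3 reads corresponded to 0.222 to 0.521 RPKM in AdCMV and 0.369 to 0.536 RPKM in AdVEGFA, which covers counting error only. The hepatocyte genes Alb and Apoa1 were abundant in every library, as the labelled tissue requires, with means of 7716 and 1977 RPKM in AdCMV.

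The libraries differed in composition. The Mup genes, which encode major urinary proteins, took 36.6% ± 12.2 (SD, n = 5) of the summed read counts of all transcripts in AdCMV. In AdVEGFA they took 16.3% ± 7.92 (SD, n = 5). In every library these summed counts exceeded the mapped tags, as with 10744077 against 9429216 in AdCMV replicate 4. The percentages are therefore shares of counts on transcripts and not of distinct reads. Over the 13933 genes tested, the log2 fold change (AdVEGFA over AdCMV) had a median of 0.38 on deposited RPKM and -0.0044 after median-ratio scaling, which divides each library by the median ratio of its genes to their mean over libraries. Of the genes called, 89.4% were higher in AdVEGFA on deposited RPKM and 71.2% after scaling. Fold changes of the members and the medians of all gene lists but that of cholangiocytes are therefore given on both scales, and fold changes of other genes on deposited RPKM unless stated. To be called in limma, which was run on log2(RPKM + 0.1), a gene needed an adjusted p below 0.05 and a change of more than 1 log2 unit in either direction.

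Of the 10 members, 9 were called higher in AdVEGFA and 0 lower on deposited RPKM, where 13% of all genes tested were called higher and 1.54% lower. After median-ratio scaling 8 were called higher, against 7.77% of all genes higher and 3.14% lower, Pdgfra being the member lost. The member called on neither scale was Pdgfc. The median log2 fold change of the members was 2.11 on deposited RPKM and 1.72 after scaling. In 9 members every AdVEGFA value lay above every AdCMV value, as it did in 14.3% of all genes tested. All 10 passed the filter of a group mean over 0.5 RPKM, but Pdgfd, Cspg4 and Notch3 passed it through the AdVEGFA group alone, so that their place among the genes tested already required a high AdVEGFA level. Because the tissue was sequenced in bulk, a change in the number of cells of a type and a change in RNA per cell cannot be told apart.

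**Figure D1:**
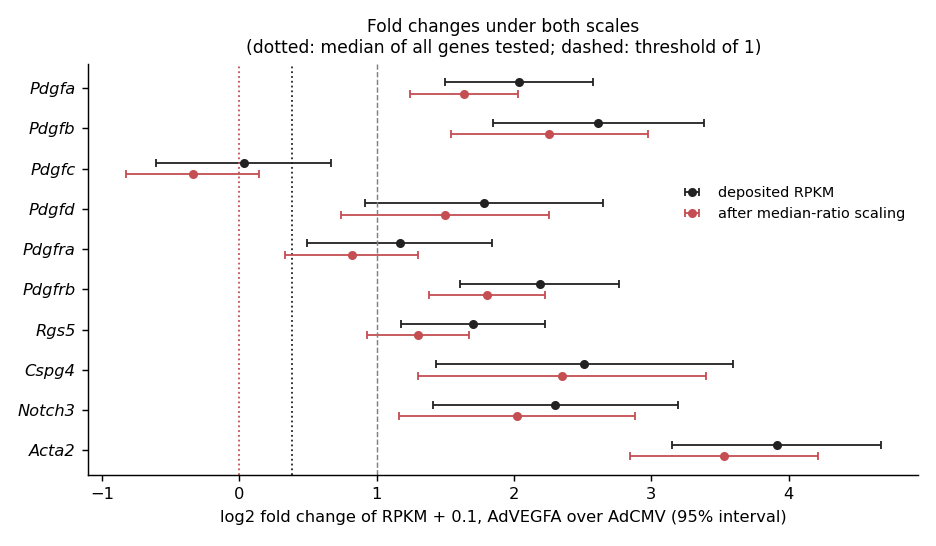
Log2 fold changes (horizontal axis, AdVEGFA over AdCMV, of RPKM + 0.1) of the 10 genes with 95% limma intervals, on deposited RPKM (black) and after median-ratio scaling (red). Dotted lines mark the median of all genes tested on each scale and the dashed line the fold threshold. Acta2 lies farthest to the right on both scales, and the intervals of Pdgfc hold 0 on both.

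The order of levels differed between the groups. In AdCMV Pdgfa had the highest mean level at 7.86 RPKM, followed by Rgs5, Acta2, Pdgfrb, Pdgfc, Pdgfb, Pdgfra, Pdgfd, Notch3 and Cspg4. Along that order, the values of neighbouring genes overlapped except between Rgs5 and Acta2 and between Notch3 and Cspg4. In AdVEGFA the order was Pdgfa at 30.7 RPKM, Acta2, Rgs5, Pdgfrb, Pdgfb, Pdgfc, Notch3, Pdgfra, Pdgfd and Cspg4, with neighbours overlapping except between Rgs5 and Pdgfrb and between Pdgfb and Pdgfc.

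**Figure D2:**
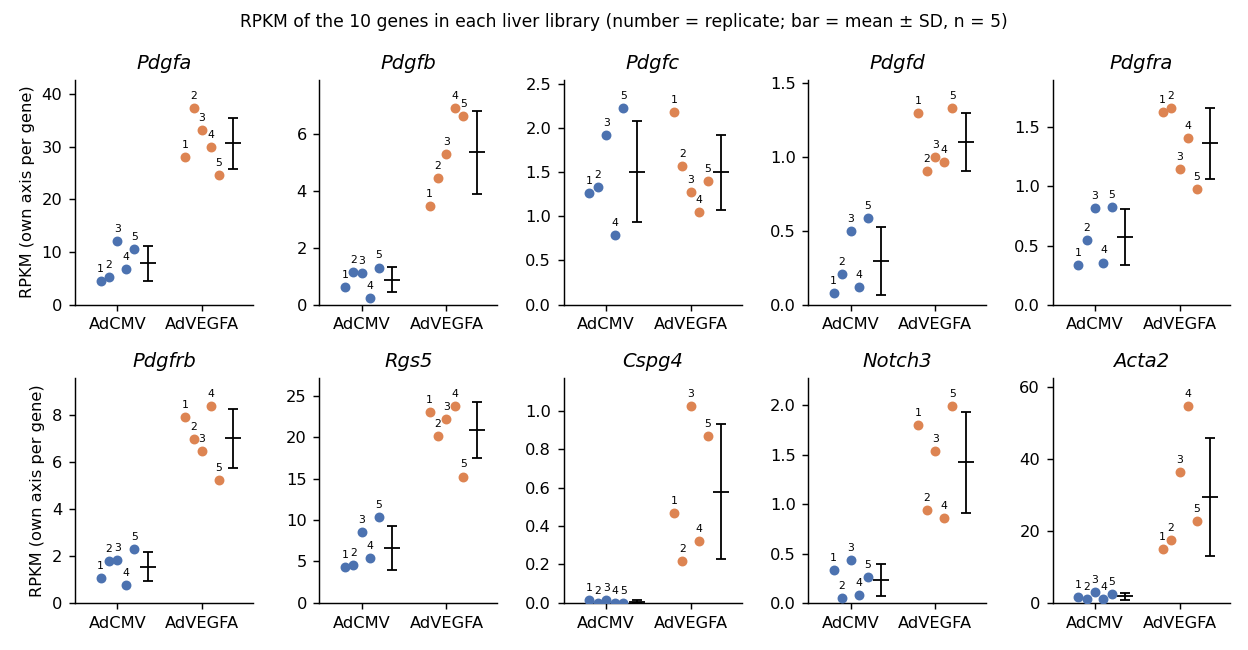
RPKM of each member (vertical axis, linear, scaled per gene) in the 5 AdCMV (blue) and 5 AdVEGFA (orange) libraries, numbered by replicate, with the mean and SD of each group. Pdgfc is the member whose groups overlap, and in AdVEGFA Acta2 runs from 15.1 RPKM in replicate 1 to 54.7 RPKM in replicate 4.

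Promoter sequence was read from RefSeq (GRCm38.p6) for 8 of the 10 members, as 250 bases before the start of each gene. Pdgfb and Pdgfrb had no entry. The searches, on both strands, were for the CArG box (allowing 1 of its inner bases to be other than A or T), which is bound by serum response factor, for CATTCC, the core bound by TEAD factors, for TGGGAA, the core bound by RBPJ, the DNA-binding partner of Notch, and for GGGCGG, bound by Sp1. Of 32851 promoters, 8.59% held a CArG box, 12.6% CATTCC, 21.6% TGGGAA and 32.7% GGGCGG. Among the members, a CArG box was found in Acta2, at 2 places, and in Pdgfc, at 1, and CATTCC in the same pair of genes, once in each. TGGGAA was found in Acta2, where it overlapped a CArG box, in Pdgfd and in 1 of the 2 Pdgfa entries. GGGCGG was found in Notch3, Cspg4 and both entries of Pdgfa, and none of the 4 in Pdgfra or Rgs5. A match is a description of the letters and not evidence of binding. Promoters are printed for Acta2, which had the largest limma log2 fold change of the members on both scales, for Pdgfc and for Rgs5. Pdgfc is the member not called, and Rgs5 is a mural member in which no search had a match. The sequences run 5′ to 3′ on the strand of the gene, with CArG boxes and CATTCC, on either strand, in capitals. They lie at chr19:34255374-34255623 on the minus strand, chr3:81036166-81036415 on the plus strand and chr1:169655251-169655500 on the plus strand.
Acta2: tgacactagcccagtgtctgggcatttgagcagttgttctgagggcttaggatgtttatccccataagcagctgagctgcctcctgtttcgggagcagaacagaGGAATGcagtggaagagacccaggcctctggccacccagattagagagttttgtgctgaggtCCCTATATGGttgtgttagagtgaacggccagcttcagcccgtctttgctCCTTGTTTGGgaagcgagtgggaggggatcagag
Pdgfc: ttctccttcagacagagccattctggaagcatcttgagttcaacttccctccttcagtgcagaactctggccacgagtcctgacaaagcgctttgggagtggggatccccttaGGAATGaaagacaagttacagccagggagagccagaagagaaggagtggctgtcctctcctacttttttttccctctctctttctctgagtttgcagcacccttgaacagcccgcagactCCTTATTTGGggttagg
Rgs5: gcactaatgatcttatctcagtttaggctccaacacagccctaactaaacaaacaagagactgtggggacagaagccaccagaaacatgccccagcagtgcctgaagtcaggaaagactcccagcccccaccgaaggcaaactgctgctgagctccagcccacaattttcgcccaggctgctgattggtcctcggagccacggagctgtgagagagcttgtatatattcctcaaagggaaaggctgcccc

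Pdgfb, which encodes the ligand that binds PDGFR-beta with high affinity, was at a low level in AdCMV livers and higher in AdVEGFA. Its transcript lies at chr15:79826306-79845238 on the minus strand in mm9, the build of the deposited table. It was at 0.612, 1.14, 1.13, 0.217 and 1.30 RPKM in AdCMV replicates 1 to 5 and at 3.46, 4.45, 5.30, 6.92 and 6.64 RPKM in AdVEGFA replicates 1 to 5, on 6 to 45 and 57 to 165 reads. The groups did not overlap, and the lowest AdVEGFA library, replicate 1, lay well above the highest AdCMV library, replicate 5. The means were 0.879 ± 0.452 and 5.35 ± 1.46 RPKM (SD, n = 5 each). AdVEGFA exceeded AdCMV by a log2 fold change of 2.61 (SE 0.36, limma adjusted p = 4.87e-05), and 2.26 (SE 0.33) after scaling.

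Pdgfa, the ligand that acts chiefly through PDGFR-alpha, was the most abundant ligand transcript in every library. It was at 4.53, 5.30, 12.1, 6.85 and 10.5 RPKM in AdCMV replicates 1 to 5 and at 28.1, 37.4, 33.2, 29.9 and 24.6 RPKM in AdVEGFA replicates 1 to 5. All AdVEGFA values exceeded all AdCMV values, and within AdCMV replicates 3 and 5 were the highest. In limma the log2 fold change was 2.04 (SE 0.26, limma adjusted p = 1.66e-05), and 1.64 (SE 0.18) after scaling.

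Pdgfd, whose product is activated by removal of its CUB domain and binds PDGFR-beta, was near the limit of detection in AdCMV. It was at 0.077, 0.207, 0.497, 0.119 and 0.583 RPKM in AdCMV replicates 1 to 5, on 1 to 7 reads, and at 1.30, 0.905, 1.00, 0.964 and 1.33 RPKM in AdVEGFA replicates 1 to 5, on 10 to 16 reads. The groups did not overlap, though few reads stood behind any value. The log2 fold change was 1.78 (SE 0.41, limma adjusted p = 0.00448), and 1.50 (SE 0.35) after scaling. With a pseudocount of 1 in place of 0.1, or tested against the fold threshold with limma's treat, it was not called. The gene Ddi1 lies within Pdgfd on the opposite strand and reached at most 0.589 RPKM.

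Pdgfc, which encodes the other CUB domain ligand, was the member without a difference past the threshold. It was at 1.26, 1.33, 1.92, 0.787 and 2.23 RPKM in AdCMV replicates 1 to 5 and at 2.19, 1.58, 1.28, 1.05 and 1.40 RPKM in AdVEGFA replicates 1 to 5. The groups overlapped throughout, the lowest value and the highest both being AdCMV values. Between the groups the log2 fold change was 0.03 (SE 0.30, 95% interval -0.60 to 0.67, limma adjusted p = 0.945). After scaling its sign was the opposite, at -0.34 (SE 0.22, 95% interval -0.82 to 0.15, limma adjusted p = 0.308, range over all alternatives 0.156 to 1).

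The makeup of the ligand transcripts within a library does not depend on scaling between libraries. Pdgfa made up 74.3% ± 7.60 (SD, n = 5) of the summed RPKM of the 4 ligands in AdCMV and 79.1% ± 4.55 in AdVEGFA, and Pdgfb 8.50% ± 4.16 and 14.0% ± 4.43. Pdgfc made up 14.7% ± 3.75 in AdCMV, from 9.88% to 19.5%, and 3.95% ± 1.38 in AdVEGFA, from 2.71% to 6.23%. Pdgfd made up 2.49% ± 1.16 and 2.92% ± 0.833. The Pdgfc share was thus lower in every AdVEGFA library than in any AdCMV library, while the shares of the other ligands overlapped between the groups. These shares are descriptions and were not tested.

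**Figure D3:**
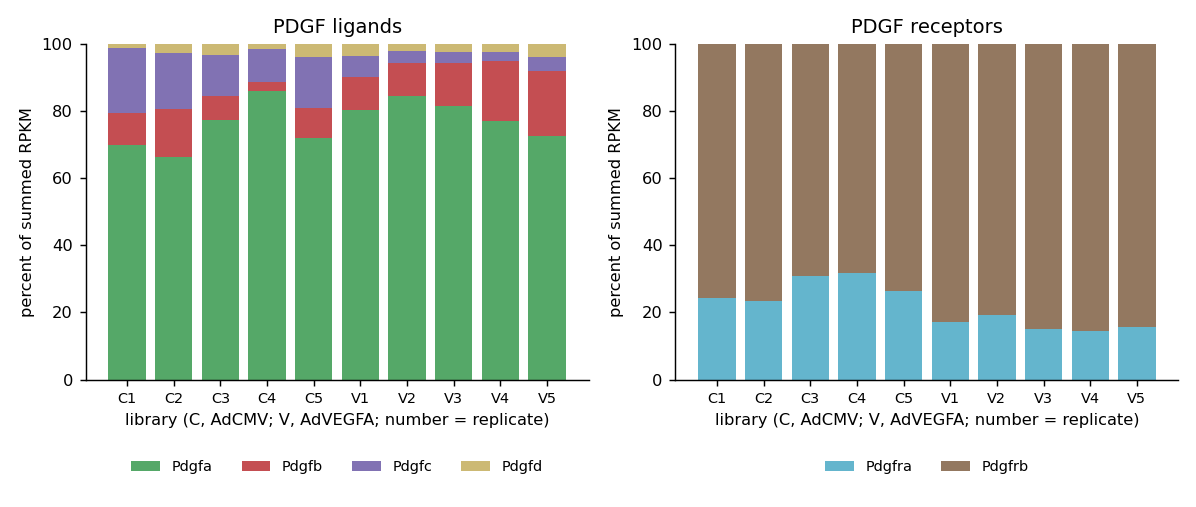
Share of each gene in the summed RPKM (vertical axis, percent) of the 4 PDGF ligands (left) and of both receptors (right) in each library, C for AdCMV and V for AdVEGFA. Pdgfc falls from between 9.88% and 19.5% of ligand RPKM in AdCMV to between 2.71% and 6.23% in AdVEGFA.

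Pdgfrb, the receptor of pericytes and stellate cells, was higher in AdVEGFA. It was at 1.05, 1.76, 1.82, 0.768 and 2.29 RPKM in AdCMV replicates 1 to 5 and at 7.90, 6.98, 6.47, 8.36 and 5.22 RPKM in AdVEGFA replicates 1 to 5, on 39 to 128 and 189 to 366 reads. The lowest AdVEGFA library, replicate 5, exceeded the highest AdCMV library, also replicate 5. This gave a log2 fold change of 2.19 (SE 0.27, limma adjusted p = 1.56e-05), and 1.81 (SE 0.20) after scaling.

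Pdgfra, the receptor of fibroblasts and other mesenchymal cells, changed less. It was at 0.338, 0.543, 0.814, 0.356 and 0.822 RPKM in AdCMV replicates 1 to 5 and at 1.63, 1.67, 1.15, 1.41 and 0.976 RPKM in AdVEGFA replicates 1 to 5. The groups did not overlap, but AdCMV replicates 3 and 5 came close to AdVEGFA replicate 5. The log2 fold change was 1.17 (SE 0.32, limma adjusted p = 0.0142). After scaling it was 0.82 (SE 0.22, limma adjusted p = 0.0184, range over all alternatives 0.00196 to 1), under the fold threshold, so that it was no longer called, as with a pseudocount of 1 and with treat. Pdgfra made up 27.4% ± 3.74 of the summed RPKM of both receptors in AdCMV and 16.3% ± 1.93 in AdVEGFA (SD, n = 5 each), with no overlap.

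Acta2, which encodes smooth muscle alpha-actin, had the largest limma log2 fold change among members on both scales, but not the largest ratio of means. It was at 1.51, 1.07, 2.97, 0.952 and 2.51 RPKM in AdCMV replicates 1 to 5 and at 15.1, 17.5, 36.5, 54.7 and 22.9 RPKM in AdVEGFA replicates 1 to 5, on 23 to 60 and 217 to 1139 reads. No values overlapped, and among the AdVEGFA livers replicates 4 and 3 were far above replicates 1 and 2. Its log2 fold change was 3.91 (SE 0.36, limma adjusted p = 6.65e-07), the 23rd largest of all genes tested, and 3.53 (SE 0.32) after scaling. Its promoter, with CArG boxes at 2 places, is printed above.

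Rgs5, a regulator of G protein signalling and a pericyte marker, was already at several RPKM in the controls. It was at 4.37, 4.61, 8.52, 5.41 and 10.4 RPKM in AdCMV replicates 1 to 5 and at 23.0, 20.2, 22.2, 23.7 and 15.3 RPKM in AdVEGFA replicates 1 to 5. AdVEGFA replicate 5 was the lowest of its group and still above every AdCMV library. The log2 fold change was 1.70 (SE 0.25, limma adjusted p = 8.16e-05), and 1.30 (SE 0.17) after scaling. With treat it was not called.

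Cspg4, which encodes the pericyte proteoglycan NG2, was close to absent from the control libraries. It was at 0.017, 0, 0.016, 0 and 0 RPKM in AdCMV replicates 1 to 5 and at 0.465, 0.218, 1.02, 0.321 and 0.869 RPKM in AdVEGFA replicates 1 to 5. These values stood on 2 reads in the 5 AdCMV libraries together and on 148 reads in the 5 AdVEGFA libraries, highest in replicates 3 and 5. Per mapped tag the pooled AdVEGFA reads were 96.7 times those of AdCMV, with an exact 95% interval of 26.3 to 806 that covers counting error only. The fitted log2 fold change, 2.51 (SE 0.51, limma adjusted p = 0.0018), and 2.35 (SE 0.48) after scaling, is set by the pseudocount. The ratio of group mean RPKM was 87.8 for Cspg4, above the 16.3 of Acta2, which led the fitted fold changes. Without AdVEGFA replicate 3, or with the filter on the mean of all samples, Cspg4 was below the filter and not tested. With a pseudocount of 1 its log2 fold change was 0.62 and it was not called, nor was it with treat. Over all alternatives in which it was tested, its log2 fold change ran from 0.62 to 5.48.

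Notch3, a Notch receptor that smooth muscle cells and pericytes use for contact with the endothelium, was at 0.332, 0.047, 0.433, 0.08 and 0.263 RPKM in AdCMV replicates 1 to 5 and at 1.80, 0.936, 1.54, 0.855 and 1.99 RPKM in AdVEGFA replicates 1 to 5. The groups did not overlap, and AdVEGFA replicates 2 and 4 were the lowest of their group. Its log2 fold change was 2.30 (SE 0.42, limma adjusted p = 7.23e-04), and 2.02 (SE 0.39) after scaling. It was not called with treat or with a pseudocount of 1, where the log2 fold change was 0.96.

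Ratios between genes of the same library were taken as log2 ratios of RPKM + 0.1, which for genes at a low level still depend on that offset, and 7 were compared by a two-sided exact permutation test over all allocations of 5 of the 10 samples, whose smallest possible p is 0.00794, with adjustment over the 7. The log2 ratio of Pdgfrb to Pdgfra was 1.26 ± 0.25 in AdCMV and 2.28 ± 0.19 in AdVEGFA (SD, n = 5 each), a difference of 1.02 (exact p = 0.00794, adjusted 0.0278). The log2 ratio of Acta2 to Pdgfrb was 0.18 ± 0.52 and 1.90 ± 0.76, a difference of 1.72 (exact p = 0.00794, adjusted 0.0278). Both ratios were higher in every AdVEGFA library than in any AdCMV library. For both, leaving out AdCMV replicate 1, 3, 4 or 5 took the adjusted exact p over 0.05, although the groups stayed fully apart: with 9 libraries the exact p of such a ratio can take few values. Over all libraries left out in turn the differences stayed between 0.94 and 1.09 and between 1.51 and 1.97.

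For the other ratios the exact test did not pass the threshold, which does not show that the groups were alike. The log2 ratio of Pdgfrb to Lrat, a stellate cell marker, differed by 0.68 ± 0.24 (SE; exact p = 0.0397, adjusted 0.0926), and that of Rgs5 to Pdgfrb by -0.49 ± 0.22 (SE; exact p = 0.0556, adjusted 0.0972). That of Pdgfb to Pdgfa differed by 0.58 ± 0.45 (SE; exact p = 0.254, adjusted 0.296), and that of Pdgfb to Pdgfrb by 0.43 ± 0.29 (SE; exact p = 0.222, adjusted 0.296). Without AdVEGFA replicate 1 the ratios of Pdgfrb to Lrat and of Pdgfb to Pdgfrb passed, and without AdCMV replicate 2 so did that of Rgs5 to Pdgfrb. The log2 ratio of Pdgfb to the endothelial marker Pecam1 was -2.45 ± 0.60 in AdCMV and -2.45 ± 0.42 in AdVEGFA (SD, n = 5 each), a difference of 0.0044 (exact p = 0.992). With a pseudocount of 1 that difference was -0.63 and passed, and the others were 0.42 for Pdgfrb to Lrat, -0.11 for Rgs5 to Pdgfrb, -0.14 for Pdgfb to Pdgfa and 0.088 for Pdgfb to Pdgfrb.

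**Figure D4:**
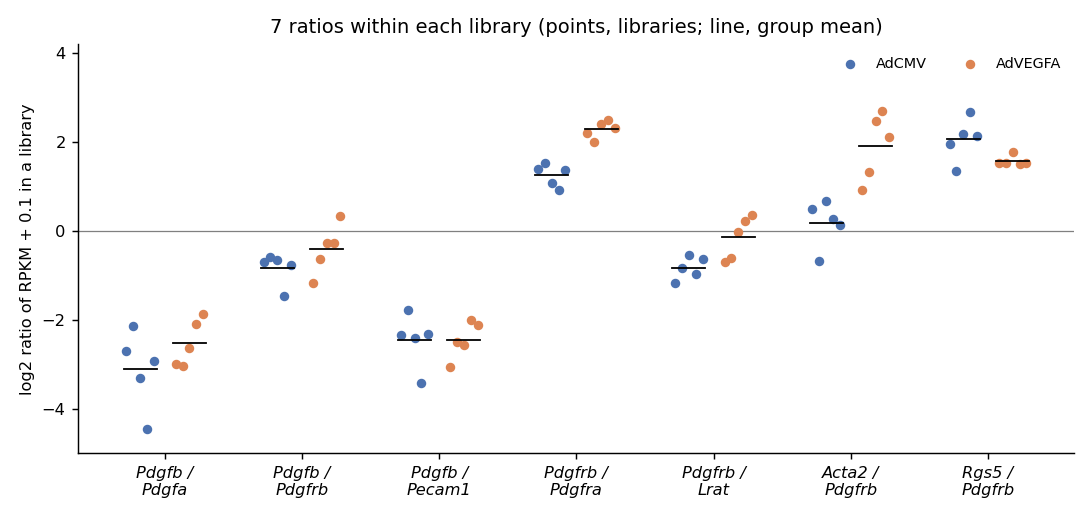
Log2 ratios of RPKM + 0.1 (vertical axis) of 7 pairs of genes in each AdCMV (blue) and AdVEGFA (orange) library, with group means as lines. Pdgfrb over Pdgfra and Acta2 over Pdgfrb separate the groups, while Pdgfb over Pecam1 has nearly the same mean in both.

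The genes whose centred log2 profiles over the 10 libraries were nearest to that of Pdgfb were Fscn1, Bcl6b, Prmt2, Mpzl1 and Fmnl3, with root mean square differences of 0.22, 0.30, 0.30, 0.35 and 0.35, against a median of 1.27 over all genes tested. Nearest to Pdgfrb were Col6a3, Cttnbp2nl, Sgk1, Lhfp and Ccdc80, at 0.16, 0.17, 0.17, 0.20 and 0.21, against a median of 1.00. Picked for the smallest differences, these genes lie under the medians by choice. The profiles also hold the step between the groups, and likeness within a group was not measured. Log2 fold changes were 2.61, 2.60, 2.27, 2.78 and 2.17 for the genes nearest to Pdgfb. For those nearest to Pdgfrb they were 2.37, 2.12, 2.18, 2.40 and 2.20. The chain of collagen VI encoded by Col6a3 was at 0.903 RPKM in AdCMV and 4.72 RPKM in AdVEGFA on average.

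Among 14 genes for the processing and retention of PDGF, 12 were tested and 5 called higher, 4 of them also after scaling. Over all genes, 13% were called higher on deposited RPKM and 7.77% after scaling. The median log2 fold change of the list was 0.46 against 0.38 over all genes, and 0.073 after scaling. Sparc, a matrix protein that binds PDGF-B, went from 22.8 ± 8.74 to 220 ± 35.1 RPKM (SD, n = 5 each), a log2 fold change of 3.34, and Plat, the protease that activates PDGF-C, from 0.698 ± 0.374 to 7.51 ± 3.25 RPKM, a log2 fold change of 3.25. Hspg2 (2.76) and Nrp1 (1.83) were also called on both scales, while Plau, at 1.00, was called on deposited RPKM alone. Furin, the convertase that cleaves PDGF pro-proteins, was at 25.0 and 24.0 RPKM. The other abundant members Lrp1 (log2 fold change 0.31), Pcsk6 (-0.42) and Ndst1 (0.35) were not called either.

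Of 27 genes for signalling from the receptors, 6 were called higher and 0 lower, with a median of 0.53, where 13% of all genes were called higher. After scaling 2 were called higher, close to the 7.77% of all genes, with a median of 0.14. The calls held on both scales were the adaptor Grb10, at 0.676 ± 0.212 and 15.2 ± 1.17 RPKM (log2 fold change 4.35), and the kinase Fyn (2.16). Gab1 (1.25), Src (1.03), Nck2 (1.18) and Sh2b3 (1.33) were called on deposited RPKM alone. Slc9a3r1, Acp1, Stat3 and Grb2, the most abundant of the others, had log2 fold changes of 0.68, 0.20, 0.06 and 0.20. Of 9 immediate early genes tested, among those that PDGF induces in culture, Ier2 (1.10) was the one called, on deposited RPKM alone, close to the 13% of all genes called higher, with a median of 0.65, and 0.26 after scaling. Jun, Junb, Dusp1 and Egr1, the most abundant of the rest, had 0.94, 0.37, 0.96 and 0.17. Egr2, which passed the filter through AdCMV alone, was called lower after scaling, at -1.29.

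**Figure D5:**
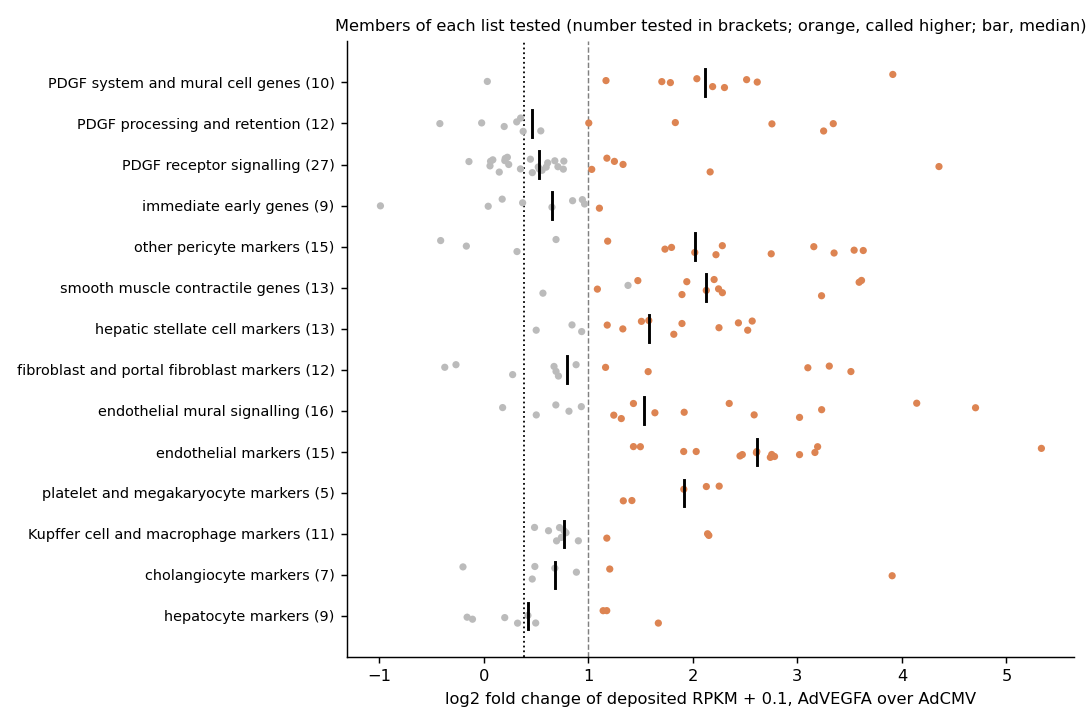
Log2 fold changes (horizontal axis, deposited RPKM + 0.1, AdVEGFA over AdCMV) of the tested members of 14 lists, with called genes in orange, other genes in grey, list medians as bars, the median of all genes as a dotted line and the fold threshold as a dashed line. All 15 endothelial markers are called, and most PDGF receptor signalling, immediate early and hepatocyte genes are not.

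Of 18 other pericyte markers 15 were tested, with a median of 2.02, and 1.64 after scaling. Where 13% of all genes were called higher, and 7.77% after scaling, 11 of these markers were called higher. They were Mcam (3.63), Cd248 (3.54), Heyl (3.35), Cox4i2 (3.16), Gucy1a3 (2.75), Ndufa4l2 (2.28), Gucy1b3 (2.22), Kcnj8 (2.02), Ednra (1.79), Gja4 (1.73) and Abcc9 (1.18), the last not called after scaling. Cd248, Heyl and Cox4i2 passed the filter through AdVEGFA alone, and the fold change of Cox4i2, which was at 0 in 4 of 5 AdCMV libraries, is set by the pseudocount. Vtn (0.69, not called), which hepatocytes also make, was the most abundant gene of the list at 712 RPKM in AdCMV. Enpep, Anpep and Tbx18 were not called either, at log2 fold changes of -0.41, -0.17 and 0.32. Foxd1 was at 0 in all 10 libraries, and Higd1b and Foxc1 were below the filter. The summed level of the list, most of it Vtn, was 714, 708, 652, 781 and 912 RPKM in AdCMV replicates 1 to 5 and 1082, 1173, 1446, 1541 and 1059 RPKM in AdVEGFA replicates 1 to 5.

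Of 15 smooth muscle contractile genes 13 were tested and 11 called higher, against 13% of all genes on deposited RPKM and 7.77% after scaling. The median was 2.13, and 1.74 after scaling. Myl9 (3.61), Actg2 (3.59), Myh11 (3.23), Smtn (2.28), Tagln (2.24), Lmod1 (2.20), Tpm2 (2.13), Itga8 (1.94), Des (1.89), Tpm1 (1.47) and Mylk (1.09) were called, the last on deposited RPKM alone. Cald1, the most abundant at 51.8 RPKM in AdCMV, and Cnn1 were not, at 0.56 and 1.38. Myh11, Actg2, Lmod1 and Cnn1 passed the filter through AdVEGFA alone, and Myocd and Synpo2 were below it. The list summed to 89.6, 121, 162, 80.3 and 114 RPKM in AdCMV replicates 1 to 5 and 226, 279, 409.5, 481 and 244 RPKM in AdVEGFA replicates 1 to 5, highest in replicates 4 and 3 as was Acta2.

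Of 15 stellate cell markers, which share Des with the list before, 13 were tested and 10 called higher, where 13% of all genes were. That share of all genes was 7.77% after scaling. The list median was 1.58, and 1.19 after scaling. Tcf21 (2.57), Ngfr (2.43), Pth1r (2.25), Des (1.89), Colec11 (1.82), Reln (1.58) and Lrat (1.51) were among those called on both scales, with Vipr1 (1.33) and Lhx2 (1.18) on deposited RPKM alone. Dcn, the most abundant at 71.1 RPKM in AdCMV, was at 0.84, Hgf at 0.94 and Ecm1 at 0.50, and Gfap and Hhip were below the filter. Hhip, not tested, went the other way without overlap, at 0.198 to 0.422 RPKM in AdCMV and 0.039 to 0.158 RPKM in AdVEGFA. Those values stood on 13 to 29 and on 2 to 10 reads. The list summed to 98.5, 145, 115, 99.7 and 142 RPKM in AdCMV replicates 1 to 5 and 360.1, 339.5, 286, 272 and 199 RPKM in AdVEGFA replicates 1 to 5, highest in replicates 1 and 2, where Acta2 was lowest. Dcn, not called, weighs most in these sums, at 171, 159, 126, 119 and 76.5 RPKM in AdVEGFA replicates 1 to 5. The order of the sums is thus not that of each marker.

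Of 13 fibroblast and portal fibroblast markers 12 were tested and 5 called higher, against 13% of all genes, and 7.77% after scaling. The list median was 0.80, and 0.46 after scaling. The collagen genes Col1a1 (3.51), Col1a2 (3.30) and Col3a1 (3.10), which activated stellate cells also express, and Fbln1 (1.57) were called on both scales, and Eln (1.16) on deposited RPKM alone. Thy1, Dpt, Entpd2 and Col15a1, the most abundant of the rest, had log2 fold changes of -0.38, 0.27, 0.67 and 0.71. Eln, Fbln1, Gli1 and Mfap4 passed the filter through AdVEGFA alone. Col3a1 was the most abundant, and the list summed to 20.2, 28.3, 36.4, 13.7 and 38.8 RPKM in AdCMV replicates 1 to 5 and 191, 184, 141, 233 and 101 RPKM in AdVEGFA replicates 1 to 5.

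Endothelial cells are the source of PDGF-B in growing vessels, and all 15 endothelial markers were called higher on both scales. For all genes the shares called higher were 13% on deposited RPKM and 7.77% after scaling. The markers had a median of 2.61, and 2.21 after scaling. They ranged from Tek (1.43) and Eng (1.50) over Stab2 (1.91), Lyve1 (2.03), Egfl7 (2.45), Robo4 (2.47), Pecam1 (2.61), Cdh5 (2.61), Erg (2.74), Flt1 (2.75) and Kdr (2.78) to Tie1 (3.02), Esam (3.17), Cldn5 (3.19) and Emcn (5.33). Egfl7 was the most abundant, none was at 0, and the list summed to 63.4, 76.6, 103, 52.9 and 95.7 RPKM in AdCMV replicates 1 to 5 and 457, 421, 473, 513 and 397 RPKM in AdVEGFA replicates 1 to 5. Of 16 genes for signals between endothelium and mural cells, which include Tek and Tie1, 11 were called higher, against those shares of all genes. The median was 1.53, and 1.16 after scaling. Efnb2 (4.70), Dll4 (4.14), Tgfb3 (3.23), Tie1 (3.02), Hbegf (2.59), Tgfb2 (2.35), Tgfb1 (1.92), Jag1 (1.64) and Tek were called on both scales, and Angpt2 (1.31) and Notch1 (1.24) on deposited RPKM alone. Efnb2, Tgfb2, Tgfb3 and Angpt1 passed the filter through AdVEGFA alone. Jag1 and Dll4 encode ligands of Notch receptors such as Notch3. Cdh2, S1pr1, Ephb4 and Edn1, the most abundant of those not called, had 0.18, 0.69, 0.93 and 0.81.

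Platelets also carry PDGF, and 5 of 10 platelet and megakaryocyte markers were tested, with a median of 1.91, and 1.55 after scaling. Where 7.77% of all genes were called higher after scaling, 4 of these markers were. On deposited RPKM, where 13% of all genes were, all of those tested were called higher. They were Pf4 (2.25), Ppbp (2.13), Gp1bb (1.91), Itga2b (1.42) and Clec1b (1.33), the most abundant, which was not called after scaling and which liver endothelium may also express. Gp9 and Gp1ba were below the filter, and Gp6 and Treml1 were at 0 in all AdCMV libraries. The list summed to 14.6, 19.6, 18.4, 10.3 and 15.5 RPKM in AdCMV replicates 1 to 5 and 46.1, 68.8, 63.2, 53.1 and 28.2 RPKM in AdVEGFA replicates 1 to 5. Of 11 Kupffer cell and macrophage markers found, Clec4f (2.15), Vsig4 (2.14) and, on deposited RPKM alone, Csf1r (1.18) were called higher, against 13% of all genes on deposited RPKM and 7.77% after scaling. The median was 0.77, and 0.38 after scaling, while the most abundant Cd5l, C1qa, C1qc and C1qb were at 0.78, 0.74, 0.90 and 0.48. Timd4 passed the filter through AdVEGFA alone. That list summed to 176, 249, 242, 145 and 315 RPKM in AdCMV replicates 1 to 5 and 473, 391, 429, 342 and 306 RPKM in AdVEGFA replicates 1 to 5.

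Of 8 cholangiocyte markers 7 were tested, and Spp1 (3.91), which other liver cells also make, and, on deposited RPKM alone, Tspan8 (1.20) were called higher, where 13% of all genes were on deposited RPKM and 7.77% after scaling. Sox9, Cldn7 and Epcam had 0.88, -0.20 and 0.46, Krt19 passed the filter through AdVEGFA alone, and Krt7 was below it. Spp1 was the most abundant, and the list summed to 42.9, 56.3, 55.8, 26.4 and 41.9 RPKM in AdCMV replicates 1 to 5 and 603, 729, 471, 647 and 285 RPKM in AdVEGFA replicates 1 to 5. Of 9 hepatocyte markers Ahsg (1.67) was called higher on both scales and Apoa1 (1.17) and Alb (1.14) on deposited RPKM alone, against the same shares of all genes. The median was 0.42, and 0.018 after scaling, and Serpina1a, Ttr, Apob and Fga had 0.20, 0.42, -0.11 and 0.49. That list, led by Alb, summed to 18873, 22118, 18344, 17855 and 23117 RPKM in AdCMV replicates 1 to 5 and 34321, 33988, 41880, 37609 and 37477 RPKM in AdVEGFA replicates 1 to 5. The part of endothelial, stellate, platelet, macrophage and other cells, and of the lower Mup share, in the differences of the members was not tested.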

How the data were processed

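Liver RNA of 5 AdCMV and 5 AdVEGFA mice, grouped by their labels, was compared. The authors mapped reads to mm9 with TopHat, counted them with HOMER and deposited RPKM per transcript. Columns with the authors' own fold change and FDR of the 2 groups were not used. The tests used limma (version 3.58.1, R 4.3.3; lmFit and trended eBayes) on log2(RPKM + 0.1), after a check on simulated data. Genes entered where either group averaged over 0.5 RPKM, and p values were adjusted over all of these by Benjamini and Hochberg. Ratios, intervals and figures used Python 3.11.15, numpy 2.4.6 and scipy 1.17.1. Named were the 10 members, the called and up to 4 other most abundant genes of each list, and the 5 genes nearest to Pdgfb and to Pdgfrb by root mean square difference; values of a few list genes are not reported here, though list counts and sums include them. Members and lists were chosen with earlier results of these data known. Median-ratio and upper quartile scaling, other pseudocounts and filters, a replicate block, treat, voom and leaving out each sample were tried as alternatives.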

Additional observations from a re-analysis of the deposited data

Results flagged for a closer look

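Across 34 groups of 5 libraries (RPKM of each member and each of the 7 ratios, in each group), 2 had a library whose gap to its nearest neighbour exceeded 0.71 of the range of the group, where chance marks about 1 in 20 groups. The lowest log2 ratio of Pdgfb to Pdgfrb in AdCMV, -1.45 in replicate 4, lay apart from the next, -0.77. The highest log2 ratio of Rgs5 to Pdgfrb in AdVEGFA, 1.76 in replicate 3, lay apart from the next, 1.53. None of the member RPKM values was marked.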

How the results depend on the processing

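Of all genes called higher and of all genes called lower on deposited RPKM, there were 1808 and 214. The counts were 1082 and 438 with median-ratio scaling, 1197 and 353 with upper quartile scaling, 503 and 36 with treat, and 954 higher with a pseudocount of 1. The following alternatives were chosen after seeing the data: voom on recovered reads with median-ratio scaling gave 1135 higher and 477 lower, the replicate block with median-ratio scaling gave 1081 and 475, and each library was also left out on that scale. Leaving out each library gave 1010 to 2357 genes higher and 178 to 459 lower over both scales, and 7 to 9 members higher; 8 were called without AdVEGFA replicate 3 on deposited RPKM and 7 on the median-ratio scale, Cspg4 then being below the filter. Of the members, 5 were called with a pseudocount of 1 (Pdgfd, Pdgfra, Cspg4 and Notch3 being lost) and 4 with treat (Rgs5 lost as well); Pdgfra was lost in every fit with median-ratio or upper quartile scaling. The log2 fold change of Pdgfc was -0.34 with median-ratio scaling, -0.25 with upper quartile scaling, -0.38 with voom on that scale and -0.34 with the block on that scale, and -0.47 to 0.19 on leaving out each library. The other 9 members were higher in AdVEGFA under every alternative in which they were tested. With a pseudocount of 1 the ratio of Pdgfb to Pdgfa differed by -0.14, that of Pdgfb to Pecam1 by -0.63, Pdgfb to Pdgfrb by 0.088, Pdgfrb to Lrat by 0.42 and Rgs5 to Pdgfrb by -0.11. On leaving out each library the differences of the log2 ratios ran from 0.24 to 0.82 for Pdgfb to Pdgfa, from 0.24 to 0.62 for Pdgfb to Pdgfrb, from -0.24 to 0.17 for Pdgfb to Pecam1 (ratio Pdgfb/Pecam1 within a library), from 0.94 to 1.09 for Pdgfrb to Pdgfra, from 0.55 to 0.82 for Pdgfrb to Lrat, from 1.51 to 1.97 for Acta2 to Pdgfrb and from -0.67 to -0.33 for Rgs5 to Pdgfrb. Of the lists, receptor signalling had 2 genes called higher with median-ratio scaling, a pseudocount of 1, treat or the block on that scale and 3 with upper quartile scaling or voom on that scale, and 2 to 7 on leaving out each library. Immediate early genes had 0 higher with either scaling, treat, or voom or the block on the median-ratio scale and 1 lower in those fits other than treat, with 0 to 4 higher and 0 to 1 lower on leaving out each library. Treat left 6 contractile, 6 stellate, 3 fibroblast, 5 endothelial to mural signalling, 1 platelet, 1 cholangiocyte and 0 hepatocyte genes, and a pseudocount of 1 left 3 fibroblast and 1 cholangiocyte genes. Either scaling, and voom or the block on the median-ratio scale, left 1 cholangiocyte and 1 hepatocyte gene, and voom on that scale 3 platelet genes. Leaving out each library gave 6 to 11 stellate, 3 to 5 fibroblast, 2 to 5 platelet, 2 to 5 macrophage, 1 to 2 cholangiocyte and 1 to 3 hepatocyte genes. The cause of these differences was not tested. Whether replicate numbers pair the libraries is not stated by the labels and was not tested. Same-numbered deviations correlated between 0.0076 and 0.291 across genes, over 0.1 in 2 of 5 pairs, and 3 of 5 AdCMV libraries correlated best with their own number. The replicate block called 1933 genes higher, 256 lower and 9 members higher. Depth limits Cspg4 and Pdgfd most, with 0 to 1 and 1 to 7 reads in AdCMV.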

Other observations

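In 10 of the 13 contractile genes tested, the 2 highest AdVEGFA values were those of replicates 3 and 4, which was the case in 21.2% of all genes tested, 6 of 15 other pericyte markers, 5 of 15 endothelial markers, 4 of 12 genes for PDGF processing and retention and 1 of 13 stellate markers. Acta2 was the 1 of the 10 members with that order. The libraries were singled out after their values were seen, so that this is a description with no test.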
